A study of Homo sapiens with 16 samples.

Results

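Levels of 8 genes listed here for the classical, Ly6C-high monocyte of the mouse were followed through the myeloid cells of T22 and T127 mammary tumors: Ly6c2, Plac8, Chil3, F13a1, Vcan, Ifitm6, Hp and Ear2, that is 8 of the 32285 genes counted in every cell. Whether each of them, Ear2 included, is particular to that monocyte was not tested. They were named as a set, with earlier results of these data known, to find where monocyte-like cells lie among the 7 monocyte and macrophage labels deposited with the cells, each the name of a cluster: CD16-CDKN1C, CD14-IL1B, CD14-PF4, Macro-M1, Macro-M2, Macro-others and Macro-MKI67.

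The tumors were LPA1-T22 (T22) and LPA1-T127 (T127), both first raised in mice that carry an LPA1 receptor transgene in the mammary epithelium and here transplanted as chunks of 25 mm3 into the mammary fat pad of female FVB mice bought at 6 weeks of age. Mice received vehicle or olaparib, an inhibitor of PARP, at 50 mg/kg by mouth each day. In the long-term experiment (8 pools, 20 days of dosing) T22 and T127 grew in separate mice or were co-transplanted into opposite fat pads, T22 first, and in the short-term experiments (4 pools of T22 and 4 of T127, 4 and 8 days of dosing) each pool held tumors of a single model. Cells of several tumors were tagged with multiplexing oligos, freed of dead cells and captured together, and the files used here do not say which tumor or treatment a cell came from. Vehicle and olaparib were therefore not compared, every value mixes both, and each short-term model counts as 1 sample in which model and pool cannot be told apart, so no test between models was possible.

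After cells were counted once, 25723 long-term, 15094 short-term T22 and 8007 short-term T127 cells remained, of which 15451, 7861 and 2200 carried 1 of the 7 labels. Pools held 34755906 to 55600377 unique molecular identifiers (UMIs), each standing for 1 captured mRNA molecule. Long-term pools 1, 2 and 3 shared 3939, 987 and 1082 cell barcodes in pairs, and only the deepest copy was kept. This touched CD16-CDKN1C most, where 4066 of 10045 cells (40.5%) were shallower copies. Labels also differed in depth, since the median cell of CD16-CDKN1C held 4706 UMIs in the long-term, 2407 in the short-term T22 and 4922 in the short-term T127 pools, against 11168, 13221 and 11285.5 in Macro-M2.

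Classical monocytes leave the bone marrow through the chemokine receptor Ccr2, circulate for a short time and enter inflamed tissue and tumors, where they mature into macrophages and lose their monocyte genes. Non-classical monocytes patrol vessel walls, depend on the transcription factor Nr4a1 and carry little Ly6C. The 8 genes have different jobs: Ly6c2 encodes the Ly6C surface antigen, Plac8 a small cysteine-rich protein, and Ifitm6 a membrane protein of the interferon-induced family. Chil3 encodes the secreted chitinase-like protein Ym1, F13a1 the A subunit of coagulation factor XIII, Vcan the matrix proteoglycan versican, Hp the hemoglobin-binding haptoglobin and Ear2 a secreted ribonuclease.

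The deposited names were checked against the genes they contain. Cdkn1c, a cell cycle inhibitor found in human CD16+ monocytes, was at 1.93 CPM (UMIs per 1000000 UMIs of the label's cells) in long-term CD16-CDKN1C and at 3.14 CPM in Macro-MKI67. Pf4, the platelet factor 4 gene, was lower in CD14-PF4 (416 CPM) than in Macro-M2 (1139 CPM), and Il1b was lower in CD14-IL1B (2890.4 CPM) than in Macro-M1 (4827 CPM). Mki67, the proliferation marker, was highest in Macro-MKI67 (482 CPM). The macrophage gene C1qa stood at 8512 CPM in CD16-CDKN1C, close to the 8632 CPM of Macro-M2, so the data go against reading CD16-CDKN1C as a pure non-classical monocyte label, and the names are used below only as the authors' cluster names. The clusters had been drawn from the expression of these same cells, so levels over labels are descriptions. Agreement of pools or experiments on them is not independent support.

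The summed level of the 8 genes was highest in CD14-PF4 in all 3 experiments. In the long-term pools it was 5049 CPM there (95% interval 4914 to 5186), 1795 CPM in Macro-M2 (1782 to 1808), 1464 CPM in CD16-CDKN1C (1451 to 1477), 1197 CPM in Macro-MKI67, 912 CPM in CD14-IL1B, 302 CPM in Macro-others and 173 CPM in Macro-M1. These and all later intervals are exact Poisson, Clopper-Pearson or, for ratios, conditional binomial intervals. They cover counting error alone and leave out the spread from tumor to tumor. Those of levels and ratios also treat each UMI as independent and so leave out the spread from cell to cell. In long-term CD14-PF4, 4 cells held 45.7% of the Chil3 and 48.0% of the Hp UMIs. CD14-PF4 is also the smallest label, with 98 of 25723 long-term cells.

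Across the 8 long-term pools the sum in CD14-PF4 had lowest 34.4, median 5557 and highest 10230.3 CPM, and both extremes came from pools 2 and 4, which held 3 such cells each. In Macro-M2 it had lowest 743, median 1646 and highest 3982 CPM. Pools 1 to 4 lay between 743 and 1222 CPM and pools 5 to 8 between 2069.9 and 3982 CPM, so the Macro-M2 pools fell into separate ranges, and the labels do not say how these pools differed. In CD16-CDKN1C the pools were closer together, with lowest 1049, median 1491 and highest 1895 CPM. In Macro-MKI67 pool 5 reached 4192 CPM, and without it the label's sum was 755 CPM. Every neighbouring pair of labels in the long-term order overlapped in its pool ranges. Within a pool, CD14-PF4 lay above Macro-M2 in 6 of 8 pools and below it in pool 2 and in pool 8 (3378 against 3982 CPM), so its lead did not hold in every pool. Macro-M2 lay above CD16-CDKN1C in 4 of 8 pools, and CD16-CDKN1C above Macro-MKI67 in 7 of 8. Without pools 1 to 3, which share barcodes, the sums were 5049.7 CPM in CD14-PF4, 2311 in Macro-M2, 1466 in Macro-MKI67 and 1368 in CD16-CDKN1C.

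**Figure D1:**
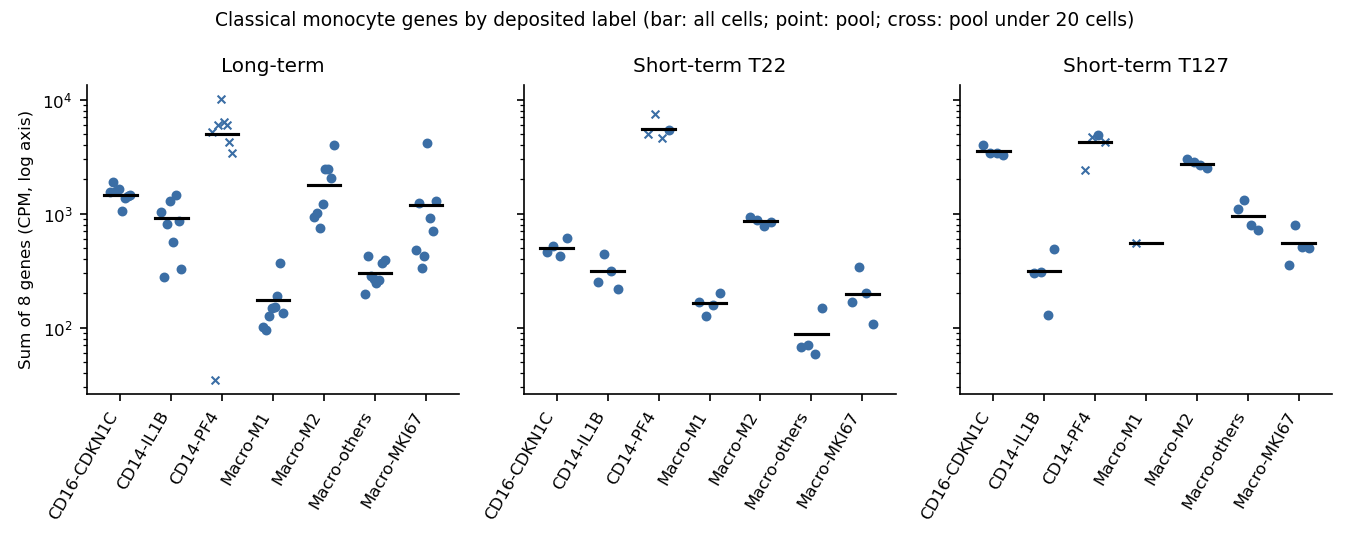
Summed level of the 8 classical monocyte genes (CPM, log axis) in each of the 7 deposited labels, with 1 panel per experiment, a point for each pool, a cross for a pool with under 20 cells of that label and a bar for all cells together. CD14-PF4 has the highest bar in each panel (5049, 5535 and 4257 CPM), and CD16-CDKN1C rises from 500.4 CPM in T22 to 3519.9 CPM in T127.

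Taken gene by gene, 6 of the 8 (Ly6c2, Plac8, Chil3, Vcan, Ifitm6 and Hp) had their highest long-term level of the 7 labels in CD14-PF4, and F13a1 and Ear2 had it in Macro-M2. Of all 8326 genes with at least 10 CPM in any of the 7 labels, 33.6% were highest in CD14-PF4 and 8.88% in Macro-M2, and 6.35% were at least 2-fold higher in CD14-PF4 than in each other label. The last condition was met by 4 of the 8 genes, Ly6c2, Vcan, Ifitm6 and Hp. In the short-term T22 pools all 8 genes were highest in CD14-PF4 and at least 2-fold above each other label, where 37.2% and 8.16% of all genes met these conditions. Other lists were also highest in T22 CD14-PF4, with 10 of 12 other classical monocyte genes and 8 of 12 non-classical monocyte genes. So were all 7 neutrophil genes and all 4 epithelial genes of at least 10 CPM, but none of 10 macrophage genes. The part of these other cell types in the members' position was not tested. Of the 12 other classical monocyte genes, 9 were highest in CD14-PF4 in the long-term and 4 in the short-term T127 pools. In the short-term T127 pools 5 of the 8 were highest there (Ly6c2, Plac8, Vcan, Ifitm6 and Hp, against 19.0% of all genes in 6 labels of at least 20 cells), Chil3, F13a1 and Ear2 were highest in Macro-M2 (10.7% of all genes), and only Hp was in CD14-PF4 at least 2-fold above each other label (1.08% of all genes).

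Ly6c2, the gene of the antigen that defines the Ly6C-high monocyte, was at 440.0 CPM in long-term CD14-PF4, with lowest 0, median 404 and highest 1061 CPM over pools (the 0 is pool 2 with its 3 cells, and a count of 0 there allows up to 103 CPM). It was at 133 CPM in CD16-CDKN1C (pools 74.4 to 200.4) and 91.4 CPM in Macro-M2 (pools 57.2 to 124). The other 4 labels had 14.96 CPM (Macro-MKI67, 7.67 without pool 6) to 34.6 CPM (CD14-IL1B). The CD16-CDKN1C and Macro-M2 pool ranges overlapped, while within a pool CD16-CDKN1C lay above Macro-M2 in 7 of 8 pools. Plac8 was at 776 CPM in CD14-PF4, 474 CPM in CD16-CDKN1C (pools 398 to 589) and 197 CPM in Macro-M2 (pools 146 to 335). Here every CD16-CDKN1C pool lay above every Macro-M2 pool. Ifitm6 had the same order, at 143, 51.6 (pools 41.6 to 58.0) and 23.1 CPM (pools 15.5 to 40.8), again with no overlap between CD16-CDKN1C and Macro-M2. The share of all genes whose pool ranges separate a pair of labels was not counted, here or for the label comparisons below.

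Among the genes of secreted products, F13a1 turned this order round, with 224 CPM in Macro-M2 (pools 135 to 412) above 89.8 CPM in CD16-CDKN1C (pools 73.4 to 106), and no Macro-M2 pool lay as low as any CD16-CDKN1C pool. Factor XIII-A is also made by alternatively activated macrophages. Ear2 was at 126.8 CPM in Macro-M2 (pools 45.2 to 237), 117 CPM in Macro-MKI67 (77.3 without pool 5), 116 CPM in CD14-IL1B and 63.1 CPM in CD16-CDKN1C (pools 45.7 to 78.5), and these ranges overlapped. Within a pool Ear2 was higher in Macro-M2 than in CD16-CDKN1C and Macro-MKI67 in 6 of 8 pools each and than in CD14-IL1B in 5 of 8. Chil3 gave the largest part of the sum in every long-term label but Macro-M1, with 1925 CPM in CD14-PF4, 1039 CPM in Macro-M2 (pools 221 to 2772), 794 CPM in Macro-MKI67 (pools 112 to 3406, 409 without pool 5) and 554 CPM in CD16-CDKN1C (pools 264 to 798). Without Chil3 the long-term sum was 3123 CPM in CD14-PF4, 909.8 CPM in CD16-CDKN1C and 755 CPM in Macro-M2, which puts CD16-CDKN1C second.

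Few cells of long-term Macro-M2 carried the Chil3 transcript. In long-term Macro-M2, 615 of 3567 cells had any of the label's 42671 Chil3 UMIs, and the 178 cells with most of them (the top 5%) held 92.6%, up to 1043 in a single cell. F13a1 was spread wider in the same label, with 927 cells and 54.7% of UMIs in the top 5%. Chil3 was more frequent elsewhere, in 41 of 98 long-term CD14-PF4 cells and in 492 of 1174 short-term T127 Macro-M2 cells. In the latter the top 5% of cells held 54.4% of its UMIs.

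Vcan and Hp were the members with the smallest share of their long-term UMIs in the 7 labels. Vcan was at 149 CPM in CD14-PF4, 58.4 CPM in Macro-M2 (pools 27.4 to 121) and 42.9 CPM in CD16-CDKN1C (pools 33.1 to 49.5). Hp reached 1362 CPM in CD14-PF4 against 55.4 CPM in CD16-CDKN1C (pools 41.9 to 69.7) and 35.2 CPM in Macro-M2 (pools 20.5 to 48.3). Long-term CD14-PF4 also held the epithelial genes Epcam at 851 CPM and Krt18 at 647 CPM, against 65.5 and 18.4 CPM in CD16-CDKN1C. Of the 7 labels it was highest for Krt8, Krt18 and Krt19, while Epcam was higher in another label. The malignant label Malign_3 held 4346 CPM of Hp. Without Hp the sum in CD14-PF4 was 3687 CPM, the highest of the 7. The part of epithelial or malignant transcripts in the CD14-PF4 level was not tested, and leaving out Hp alone does not measure it.

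**Figure D2:**
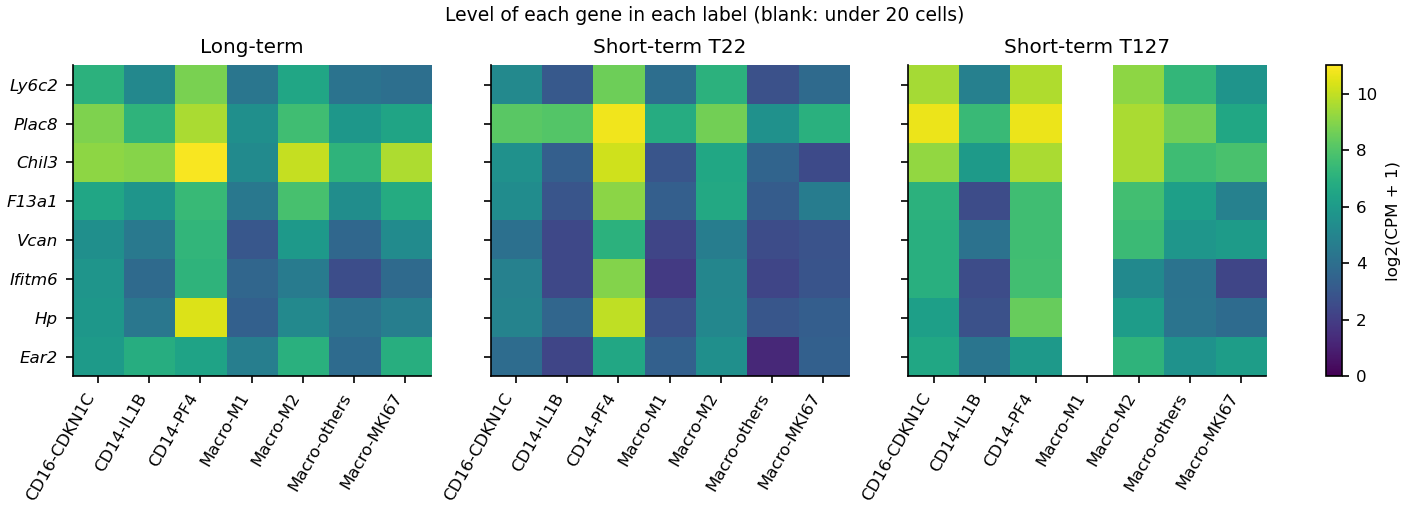
Level of each of the 8 genes, as log2(CPM + 1), in each of the 7 deposited labels, with 1 panel per experiment and a blank column for Macro-M1 in T127, which had 3 cells. The CD14-PF4 column is bright for most genes in each panel, and in T127 the CD16-CDKN1C and Macro-M2 columns are nearly as bright for Ly6c2 (834, 731 and 562 CPM).

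Outside the 7 labels the members parted company. The 7 labels held 98.7% of all long-term UMIs of Chil3, 98.7% of Ear2, 94.2% of Ifitm6 and 91.0% of F13a1, while they held 46.8% of the UMIs of all genes. For Ly6c2 the share was 66.3% and for Plac8 60.4%, and for Vcan and Hp it fell to 15.2% and 7.60%. Short-term T22 had 13.8% and short-term T127 66.1% of its Ly6c2 UMIs in the 7 labels, and for Hp the shares were 7.67% and 88.8%. The 7 labels held 39.5% of the UMIs of all genes in T22 and 12.6% in T127.

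Plasmacytoid dendritic cells, the interferon producers labelled pDC, had the highest Ly6c2 and Plac8 of any label. Long-term Ly6c2 was at 3035 CPM there (pools 2146 to 3665), and Plac8 reached 5129 CPM (pools 3485 to 6168). Their Chil3 was 10.8 CPM and their Ifitm6 1.08 CPM, so they carried these genes without the rest of the set. The CD8 T cell label CD8_Tn-CCR7 had 1427 CPM of Ly6c2 and 329.7 CPM of Plac8. Vcan was higher in the fibroblast label i_CAF (422 CPM) and in the malignant label Malign_0 (209 CPM) than in any of the 7 labels.

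In the short-term T22 pools the sum was 5535 CPM in CD14-PF4 (pools 4982, 7437, 4591 and 5394), 867 CPM in Macro-M2 (pools 939, 884, 775 and 851) and 500.4 CPM in CD16-CDKN1C (pools 459, 518, 425 and 609). These 3 ranges did not overlap. The other labels followed with 313 CPM in CD14-IL1B, 198 in Macro-MKI67, 163 in Macro-M1 and 87.6 in Macro-others, and here the ranges of neighbours overlapped. Within a pool CD14-IL1B lay above Macro-MKI67 in 4 of 4 pools, Macro-MKI67 above Macro-M1 in 3 of 4 and Macro-M1 above Macro-others in 4 of 4. CD14-PF4 held 66 cells, yet 31.2% of all Chil3 and 29.0% of all Ifitm6 UMIs of the experiment.

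Gene by gene, the T22 levels of the secreted products were set against those of the next label. Chil3 was at 959, 1288, 603 and 1579 CPM in the CD14-PF4 pools and at 83.8 to 113 CPM in those of Macro-M2, the next label. F13a1 was at 716, 515, 503 and 459 CPM in CD14-PF4 and 56.7 to 140.4 CPM in Macro-M2. In both, the lowest CD14-PF4 pool was several times the highest Macro-M2 pool. Hp was at 705, 1763, 549.6 and 998 CPM in CD14-PF4, against 20.4 to 41.3 CPM in Macro-M2, and Ear2 at 99.2, 142, 40.2 and 96.9 CPM against 32.9 to 63.4 CPM, where the ranges overlapped but CD14-PF4 lay above Macro-M2 within each of the 4 pools. Ifitm6, the membrane protein gene, was at 441, 563, 476 and 495 CPM in CD14-PF4 and at 27.9 to 36.7 CPM in Macro-M2. Within the 7 labels Plac8 had more UMIs than any other member in T22, at 1720.4 CPM in CD14-PF4 (pools 1220.2 to 2718), 406 CPM in Macro-M2 (pools 352 to 489) and 292 CPM in CD16-CDKN1C (pools 271 to 337). It made up most of the sum in CD14-IL1B (266 of 313 CPM) and in Macro-M1 (111 of 163 CPM), labels with little of the other members. The same held in CD16-CDKN1C (292 of 500.4 CPM), Macro-MKI67 (126 of 198 CPM) and Macro-others (46.2 of 87.6 CPM).

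In the short-term T127 pools the sum was 4257 CPM in CD14-PF4 (pools 2427, 4738, 4919 and 4247), 3519.9 CPM in CD16-CDKN1C (pools 3998, 3435, 3398 and 3242) and 2750.3 CPM in Macro-M2 (pools 2990.1, 2812, 2697 and 2495). The ranges of CD14-PF4 and CD16-CDKN1C overlapped, with CD14-PF4 above within 3 of 4 pools, while every CD16-CDKN1C pool lay above every Macro-M2 pool. The order of CD16-CDKN1C and Macro-M2 turned round when each cell's CPM was averaged over cells (3543 and 3636 CPM) and when Plac8 was left out of the sum (1873 and 1966 CPM). Macro-others had 955 CPM, Macro-MKI67 551 CPM and CD14-IL1B 316 CPM, with overlapping ranges between neighbours, although each of these 3 labels lay above the next within 4 of 4 pools. Macro-M1 had 3 cells and is not compared.

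In T127 the members were spread more evenly over CD14-PF4, CD16-CDKN1C and Macro-M2. Plac8 was at 1652 CPM in CD14-PF4 (pools 1059.9 to 1982) and 1647 CPM in CD16-CDKN1C (pools 1322 to 2105), which overlapped, and at 784 CPM in Macro-M2 (pools 719 to 830.5). Chil3 was at 778, 774 and 600.4 CPM in Macro-M2, CD14-PF4 and CD16-CDKN1C, with pool ranges of 678 to 909.9, 278 to 983 and 279 to 843 CPM. The 3 ranges overlapped, and within a pool Chil3 was higher in Macro-M2 than in CD16-CDKN1C in 3 of 4 pools and than in CD14-PF4 in 2 of 4. Ear2 was highest in Macro-M2 (123, 126, 190.3 and 130.1 CPM) and lower in CD14-PF4 (21.9, 60.7, 84.1 and 43.6 CPM), with no overlap. The next label after Macro-M2 was CD16-CDKN1C at 92.5 CPM (pools 51.0 to 137.7), and these ranges overlapped. Ifitm6 was at 175, 192, 223 and 185 CPM in CD14-PF4, 107, 74.3, 144 and 151 CPM in CD16-CDKN1C and 36.0, 36.4, 30.9 and 43.2 CPM in Macro-M2, and the ranges of these 3 labels did not overlap. Hp kept the widest gap, at 234, 233, 446 and 311 CPM in CD14-PF4 against 88.6, 61.2, 58.9 and 89.8 CPM in CD16-CDKN1C.

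The short-term T127 and T22 pools were then set side by side in the 6 labels with at least 20 cells in both. In CD14-PF4, the label highest in the long-term pools, the T127 sum was 0.769 times the T22 sum (95% interval 0.734 to 0.806), and the pool ranges overlapped. The difference between the models lay in the larger labels: the T127 sum was 7.03 times the T22 sum in CD16-CDKN1C (6.81 to 7.26), 3.17 times in Macro-M2 (3.10 to 3.25) and 10.9 times in Macro-others (10.2 to 11.7), with a smaller ratio of 2.78 in Macro-MKI67 (2.59 to 3.00), and in each of these 4 labels every T127 pool lay above every T22 pool. In CD14-IL1B the ratio was 1.01 (0.917 to 1.11). With T127 cells at 4922 and T22 cells at 2407 median UMIs in CD16-CDKN1C, depth moved with this comparison. Over cells of at least 3000 UMIs the ratio there was 5.48. When each cell's CPM was averaged over cells, the ratios in CD16-CDKN1C, Macro-M2 and Macro-others were larger than those above, as given with the other processing settings.

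In CD16-CDKN1C all 8 genes were at least 2-fold higher in T127, against 14.3% of all 7924 genes with at least 10 CPM in either model, and for all 8 every T127 pool was above every T22 pool (32.1% of all genes). Ly6c2 stood at 40.0, 26.3, 23.7 and 52.5 CPM in the T22 pools and at 1029.9, 745, 739 and 349.7 CPM in the T127 pools, a ratio of 20.7 (18.8 to 22.8). Chil3 stood at 36.6, 66.3, 31.0 and 52.8 CPM in the T22 pools and at 721, 843, 542 and 279 CPM in the T127 pools, a ratio of 13.04 (11.9 to 14.3). The lowest T127 pool of both genes was several times the highest T22 pool. The ratio was 7.75 for Vcan, 6.64 for Ear2, 5.63 for Plac8, 4.39 for Ifitm6, 3.30 for F13a1 and 2.50 for Hp, the smallest of the 8. Of the conventional dendritic cell genes with at least 10 CPM in CD16-CDKN1C, 4 of 8 were at least 2-fold higher and 1 lower in T127 (median ratio 1.95, against 6.13 for the members), and the list summed to 187 CPM in T22 (pools 156 to 217) and 507 CPM in T127 (pools 192 to 662). Both proliferation genes were lower there, Mki67 at 111 and 29.0 CPM and Top2a at 147 and 26.0 CPM, and 2 of 3 fibroblast genes were lower and 1 higher. The part of other or dividing cells in the CD16-CDKN1C ratios was not tested.

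In Macro-M2, 6 of the 8 genes were at least 2-fold higher in T127 (8.04% of 7778 genes), led by Chil3 with a ratio of 8.29 (7.73 to 8.90) and Vcan with 7.42 (6.47 to 8.55). Chil3 was at 90.8, 91.6, 113 and 83.8 CPM in the T22 pools and at 909.9, 802, 716 and 678 CPM in the T127 pools. Plac8 had a ratio of 1.93 and Ifitm6 of 1.14 (0.990 to 1.33), and Ifitm6 was the only member whose pool ranges overlapped there (32.1% of all genes had every T127 pool above every T22 pool). F13a1 lay at the threshold, with a ratio of 2.00 (1.86 to 2.16). Neutrophil genes moved with the members in Macro-M2, at least 2-fold higher in 4 of 5 with at least 10 CPM, with a median ratio of 6.06 against 2.64 for the members, and the 9 genes summed to 32.7 CPM in T22 (pools 19.9 to 51.3) and 232 CPM in T127 (pools 115 to 428), with Ly6g and Ngp at 0 in both. Both epithelial genes with at least 10 CPM were also higher (median ratio 2.75). The part of such cells in the Macro-M2 ratios was not tested. In Macro-others all 8 were at least 2-fold higher in T127 (11.5% of 7991 genes), with ratios of 2.66 for Hp to 33.9 for Ear2, and all but Hp had every T127 pool above every T22 pool (27.2% of all genes). T22 levels in Macro-others were low, 1.41 CPM for Ear2 (0.763 without pool 4) and 46.2 CPM for Plac8 (30.7 without pool 4), and T127 Ear2 there was 47.8 CPM (30.8 without pool 4). Genes of conventional dendritic cells moved with the members there, at least 2-fold higher in T127 in 8 of 9 with at least 10 CPM, with a median ratio of 12.3 against 9.77 for the members, and the list summed to 111 CPM in T22 (pools 81.1 to 158) and 1011 CPM in T127 (pools 644 to 1406). So were 3 of 3 epithelial genes (median ratio 3.46) and 2 of 2 endothelial genes (3.02). The part of such cells in the Macro-others ratios was not tested.

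CD14-PF4 went the other way for several genes. Ly6c2 was 2.17 times the T22 level in T127 (1.88 to 2.50), at 417, 911, 879.6 and 1025 CPM against 397, 366, 409 and 373 CPM in the T22 pools, and was the only member at least 2-fold higher (10.9% of 8489 genes). Hp (0.347 times, 0.300 to 0.401), F13a1 (0.361 times, 0.296 to 0.438) and Ifitm6 (0.408 times, 0.334 to 0.495) were at least 2-fold lower in T127 (13.5% of all genes). Their T127 pools all lay below the T22 pools (6.4% of all genes), while Ly6c2 alone had every T127 pool above (5.48%). Genes of other cells were lower with them. At least 2-fold lower in T127 were 7 of 8 neutrophil genes (median ratio 0.303), 3 of 4 epithelial genes (0.425) and 9 of 11 non-classical monocyte genes (0.429) with at least 10 CPM, against 0.638 for the members, while 1 neutrophil gene, Cxcr2, was at least 2-fold higher. Also at least 2-fold lower were 3 of 3 T cell genes (0.0945) and 2 of 3 fibroblast genes (0.0831), whose lists summed in T22 to 42.3 and 96.5 CPM and in T127 to 2.75 and 79.6 CPM. The neutrophil list summed to 4034 CPM in T22 (pools 149 to 10609) and 1237 CPM in T127 (pools 29.2 to 2235), where Ly6g and Ngp were at 0, and the epithelial list to 1081 CPM in T22 (pools 87.1 to 1747) and 691 CPM in T127 (pools 415 to 892), and the pool ranges of both lists overlapped. The part of these cells in the lower Hp, F13a1 and Ifitm6 was not tested. In Macro-MKI67, the label of dividing macrophages, Chil3 was at 4.56 CPM in T22 (0.246 without pool 2) and 229 CPM in T127 (124 without pool 2), while Plac8 was at 126 and 92.6 CPM. Of the 7 members with at least 10 CPM there in either model (all but Ifitm6), 4 were at least 2-fold higher in T127 (7.79% of 8117 genes), and Chil3, Vcan and Ear2 had every T127 pool above every T22 pool (23.7% of all genes). In CD14-IL1B the pool ranges overlapped for all 8 genes, where 19.1% of all genes had every T127 pool above and 6.1% below the T22 pools, and of the 6 with at least 10 CPM (all but F13a1 and Ifitm6) 4 were at least 2-fold higher and Hp at least 2-fold lower in T127 (9.4% and 4.3% of 7563 genes). There T127 pool 4 held most of the Chil3 and Ear2, whose T127 levels were 63.6 and 18.5 CPM with it and 25.9 and 3.46 CPM without it.

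**Figure D3:**
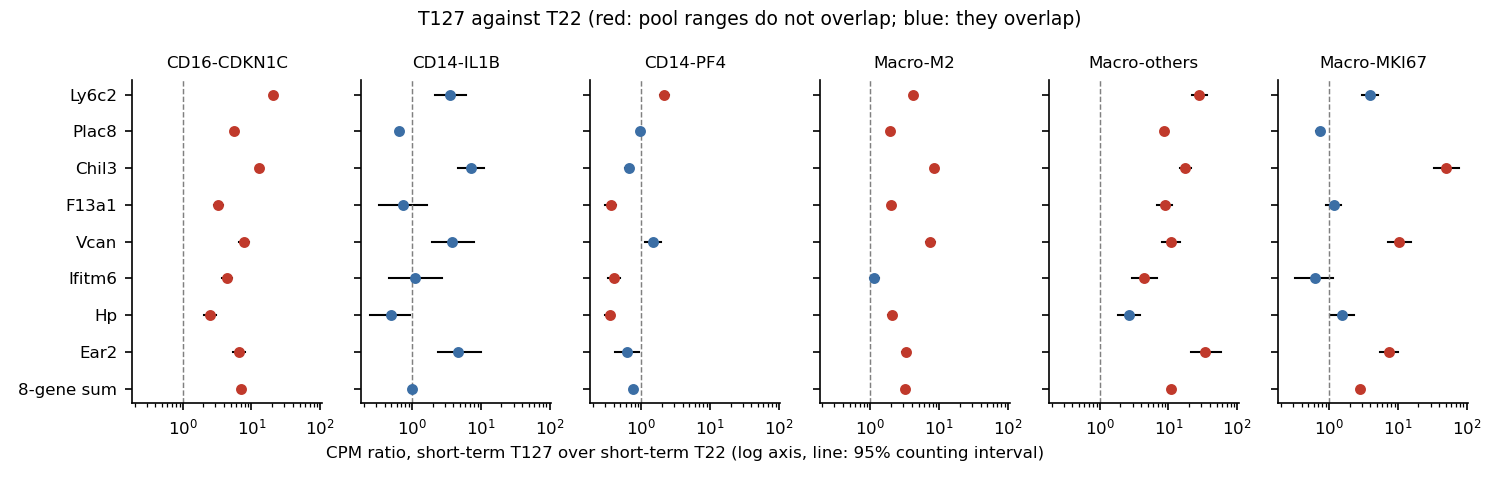
Ratio of the CPM level in short-term T127 to that in short-term T22 (log axis) for each of the 8 genes and their sum in 6 labels, with lines for the 95% counting interval, red points where the pools of the models do not overlap and blue points where they do. All points lie right of 1 in CD16-CDKN1C, from 2.50 (Hp) to 20.7 (Ly6c2), while in CD14-PF4 they lie between 0.347 (Hp) and 2.17 (Ly6c2).

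Further genes listed for classical monocytes were counted in the same way. Of 12 such genes, 9 were at least 2-fold higher in T127 in CD16-CDKN1C and none at least 2-fold lower, with a median ratio of 4.26 against 1.21 over all genes tested (14.3% of which were at least 2-fold higher). Thbs1, the adhesive glycoprotein thrombospondin 1, had a ratio of 14.4 and Fn1 (fibronectin) of 12.3, while Ccr2 had 1.79, Msrb1 1.09 and Mgst1 0.899. In Macro-M2, 6 of the 12 were at least 2-fold higher (median ratio 2.08, all genes 1.07, with 8.04% of them higher), and Ccr2 was at 71.8 CPM in T22 and 59.2 CPM in T127. In Macro-others 8 of the 12 were at least 2-fold higher (median ratio 4.54, against 11.5% of all genes), and in CD14-PF4 1 was higher and 2 were lower (10.9% and 13.5% of all genes).

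The 12 genes of non-classical monocytes were counted too. In CD16-CDKN1C, 7 of the 11 with at least 10 CPM were at least 2-fold higher in T127 and 1 lower (median ratio 2.05, against 14.3% of all genes higher and 6.37% lower), with Ace, the angiotensin-converting enzyme, at 19.4 and 53.5 CPM. In Macro-M2 1 was higher and 3 lower of 9 (median ratio 0.615, against 8.04% of all genes higher and 6.31% lower), and in CD14-PF4 9 of 11 were at least 2-fold lower, as were 13.5% of all genes. Macrophage genes had median ratios of 0.986, 0.739, 0.720 and 0.550 in CD16-CDKN1C, Macro-M2, Macro-others and CD14-PF4, with C1qa in Macro-M2 at 5401 CPM in T22 and 3585 CPM in T127.

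Summed levels cannot tell many cells with a little of each transcript from a few cells with all of it, so the number of the 8 genes was counted in each cell after thinning every cell to 3000 UMIs and leaving out shallower cells. Of the long-term cells of the 7 labels, 749 of 13277 (5.64%) held at least 4 of the 8 genes. In short-term T22 it was 144 of 5176 (2.78%) and in short-term T127 378 of 2073 (18.2%). Outside the 7 labels, 6 of 9058 long-term, 1 of 6912 short-term T22 and 1 of 5537 short-term T127 cells did so. No endothelial cell did, which should lack these genes, but 0 of 140 long-term endothelial cells allows a share of up to 2.14% as 3 cells of that number, and the 95% interval reaches 2.60%. Plasmacytoid dendritic cells, for all their Ly6c2 and Plac8, had exactly 2 of the 8 genes in 146 of 160 cells and at least 4 in none.

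In the long-term pools the share with at least 4 genes was 33.7% in CD14-PF4 (33 of 98 cells, 95% interval 24.4 to 43.9), 10.2% in CD16-CDKN1C (407 of 3998, 9.26 to 11.2) and 6.72% in Macro-M2 (236 of 3510, 5.92 to 7.60). It was 5.01% in Macro-MKI67, 3.36% in CD14-IL1B, 0.911% in Macro-others and 0.207% in Macro-M1 (2 cells, 1 each in pools 5 and 7, and 0.119% without pool 7). The order of CD16-CDKN1C and Macro-M2 is the reverse of their summed levels, and 1981 shallower cells of CD16-CDKN1C were left out here, so no order is read from it. By number, though, CD16-CDKN1C held 54.3% and Macro-M2 31.5% of all such cells, and CD14-PF4 4.41%. Of the 13277 thinned cells of the 7 labels, these labels made up 3998, 3510 and 98. With 98 cells against 749 such cells, CD14-PF4, the label with the highest level, could not have held most of them. Its 4.41% of such cells was above its share of the thinned cells.

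In the long-term pools most cells of each of the 7 labels except CD14-PF4 had none of the genes, with a tail of cells that had many. In long-term CD16-CDKN1C 2613 cells had 0, 522 had 1, 200 had 3, 159 had 4 and 41 had 7. In CD14-PF4 36 of 98 cells had 0, 4 had 3, 2 had 4 and 10 had 7, so cells near the limit of 4 were few there. Across pools the share in Macro-M2 was lowest in pool 3 (2.88%) and highest in pool 8 (14.2%), and pools 5 to 8 again lay above pools 1 to 4. In CD16-CDKN1C it ran from 8.81 to 12.8%.

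In the short-term pools, T22 cells with at least 4 genes made up 65.2% of CD14-PF4 (43 of 66 cells, pools 60.9 to 71.4), 5.37% of Macro-M2 (pools 3.75 to 6.63) and 3.59% of CD16-CDKN1C (pools 3.00 to 4.89). In T127 they made up 43.9% of CD14-PF4 (29 of 66, pools 30.0 to 52.9), 22.3% of Macro-M2 (pools 21.4 to 24.5), 20.8% of CD16-CDKN1C (pools 18.8 to 23.1) and 10.2% of Macro-others. In Macro-M2 and Macro-others the T127 pools lay above all T22 pools, and in CD14-PF4 below them. In CD16-CDKN1C 2562 of 4205 T22 cells and 119 of 402 T127 cells were too shallow to enter, against 0 in Macro-M2 in both, so neither its place among the labels nor its difference between the models is read from these shares. Macro-M2 held 69.3% of the T127 cells with at least 4 genes, counted among the cells deep enough. It also made up 1174 of the 2073 such deep cells of the 7 labels. In T22 CD16-CDKN1C held 41.0%, CD14-PF4 29.9% and Macro-M2 25.0% of the cells with at least 4 genes. Of the 5176 deep T22 cells these labels made up 1643, 66 and 670.

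**Figure D4:**
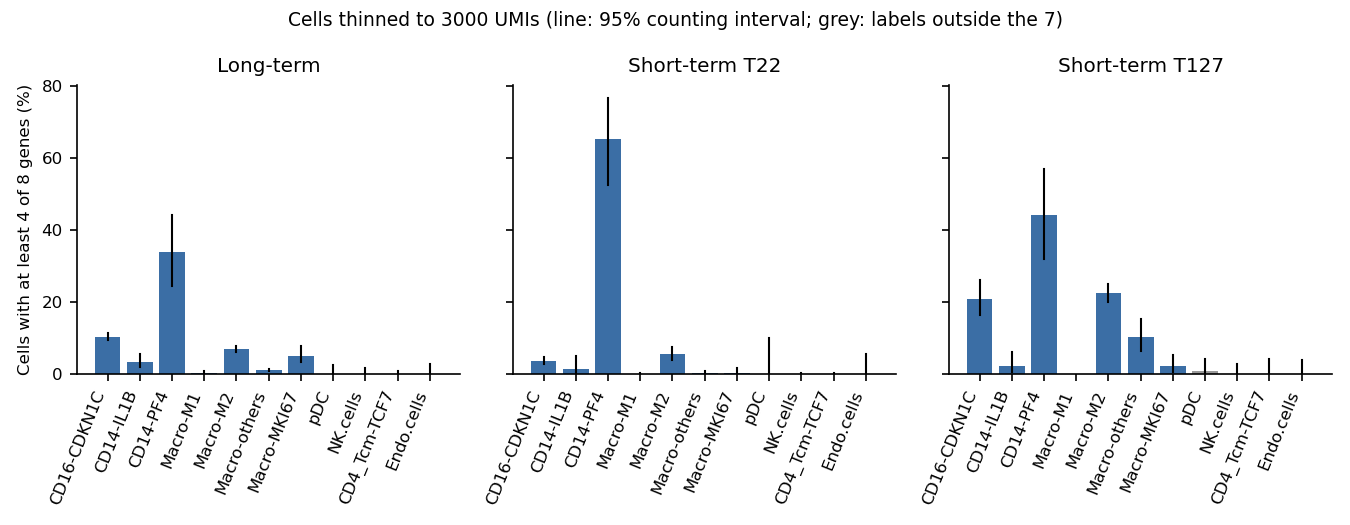
Share of cells (%) with a UMI of at least 4 of the 8 genes after thinning to 3000 UMIs, in the 7 labels (blue) and 4 other labels (grey), with 1 panel per experiment and lines for 95% Clopper-Pearson intervals. CD14-PF4 stands highest in each panel (33.7, 65.2 and 43.9%), and Macro-M2 is at 5.37% in T22 and 22.3% in T127.

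Several members were found in the same cells, but not all of them in every label. In long-term Macro-M2, before thinning, 927 cells had a UMI of F13a1, 555 of Vcan and 529 of Ear2, against 299 of Ly6c2. Most F13a1 cells there thus had no Ly6c2 UMI. In long-term CD16-CDKN1C, cells with a Ly6c2 UMI had a Plac8 UMI in 86.3% of cases (95% interval 82.5 to 89.5) against 13.5% (12.4 to 14.6) of cells without one. For Chil3 the shares were 65.7 and 9.22%, for Ifitm6 46.1 and 5.63%, and for Hp 45.3 and 6.24%. Ccr2, which the set does not hold, was found in 24.3 and 5.57%. The complement gene C1qa went the opposite way, with 27.9% of cells with Ly6c2 and 85.5% of cells without it. All cells had been thinned to 3000 UMIs, and in long-term endothelial cells the share with a UMI was 1.43% for Plac8, 2.14% for Chil3 and 2.14% for Hp (median 3426 UMIs before thinning). There Ifitm6 and Ccr2 were found in 0 of 140 cells (which allows up to 2.14%), but C1qa in 15.7% (10.1 to 22.8), and C1qa was in 22.4% (18.9 to 26.3) of cells of the T cell label CD4_Tcm-TCF7 (median 2758 UMIs). The interval of the share in cells with Ly6c2 (23.6 to 32.6) overlapped this background.

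The Ly6c2 cells of different labels were not alike in every gene. In long-term Macro-M2 cells with Ly6c2, Plac8 (74.8%) and Chil3 (65.8%) were nearly as frequent as in CD16-CDKN1C, but Ifitm6 was found in 18.3% (13.2 to 24.4) against 46.1% (41.2 to 51.1), Hp in 30.2% against 45.3%, and the non-classical gene Ace in 2.48% (0.808 to 5.68) against 13.5% (10.3 to 17.2). Ace is also an endothelial gene, and in CD4_Tcm-TCF7 T cells it was found in 1.17% (0.430 to 2.53), which overlaps the share in Macro-M2. Of the 30 long-term CD14-PF4 cells with Ly6c2, all had Hp, 86.7% had Ifitm6, 70.0% F13a1 and 10.0% C1qa, the last below the share in endothelial and T cells and so read as background. In short-term T127 Macro-M2, C1qa was found in 15.7% of cells with Ly6c2 and 59.3% of those without, against 4.21% of endothelial cells (median 8416 UMIs), while Ear2 was as frequent in either (14.9 and 16.1%, intervals overlapping).

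**Figure D5:**
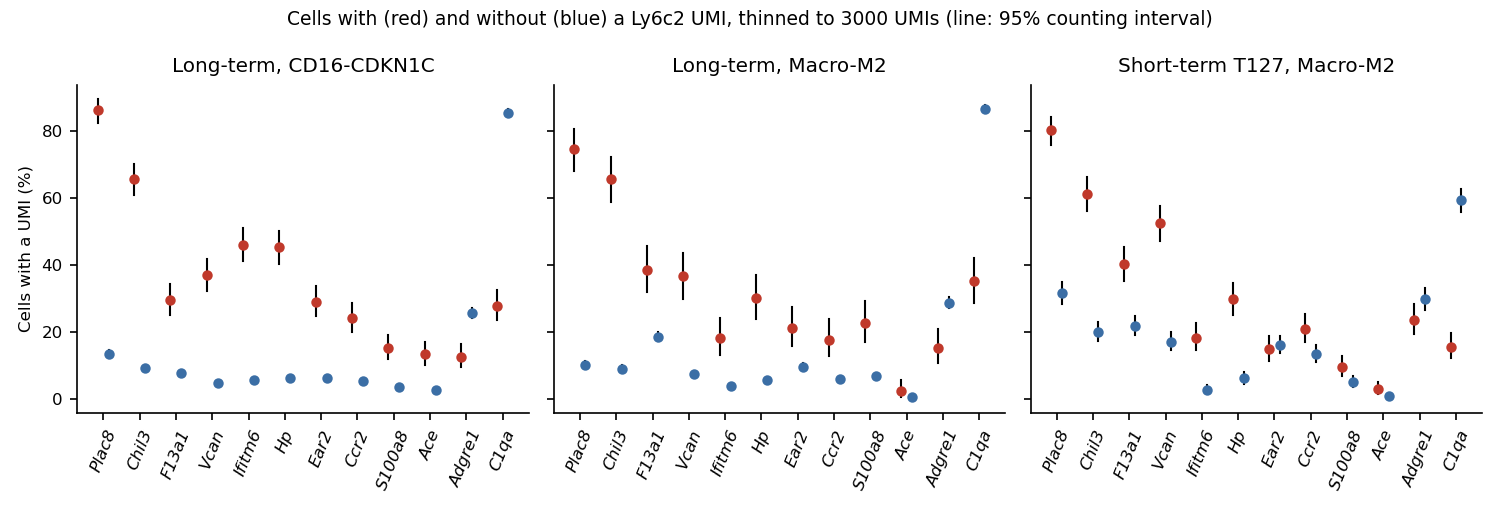
Share of cells (%) with a UMI of each gene among cells with (red) and without (blue) a Ly6c2 UMI, all thinned to 3000 UMIs, in long-term CD16-CDKN1C, long-term Macro-M2 and short-term T127 Macro-M2, with lines for 95% Clopper-Pearson intervals. Plac8 leads the red points (86.3, 74.8 and 80.3%), and C1qa is lower in red than in blue in each panel.

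Lists of genes that took no part in the count separated the same cells. Among long-term cells of the 7 labels with at least 4 members, the 12 other classical monocyte genes summed to a median of 81 UMIs per 3000 and the 10 macrophage genes to 4, while in cells with 0 or 1 member the medians were 27 and 87. In short-term T22 they were 108 and 4 against 22 and 62, and in short-term T127 102.5 and 8 against 50 and 26. The low macrophage sum held in CD16-CDKN1C (3 against 87) and in Macro-M2 (5 against 91) alike. Cells with exactly 3 members, just under the limit, had medians of 61 and 6 in the long-term pools, and cells with exactly 4 had 69 and 4, so the limit of 4 is a point on a range and not the edge of a cell type.

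Non-classical monocyte genes were also richer in these cells in CD16-CDKN1C, with a median of 9 UMIs per 3000 against 2 in short-term T22, 5 against 2 in short-term T127 and 3 against 1 in the long-term pools. In long-term Macro-M2 the medians were 1 and 1. Ace was at 19.4 CPM in long-term CD16-CDKN1C and 1.11 to 10.5 CPM in the other 6 labels. In the same pools Ceacam1 and Eno3 were highest in CD14-PF4. In short-term T22, 8 of the 12 non-classical genes, Ace among them, were highest in CD14-PF4.

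Genes of other cell types were present in CD14-PF4, the label with the highest levels. The 9 neutrophil genes summed to 4034 CPM there in short-term T22 and 1237 CPM in short-term T127, against 2.50 to 52.9 and 10.1 to 232 CPM in the other labels of at least 20 cells. S100a8 and S100a9, which monocytes share with neutrophils, were at 1586 and 1901 CPM in T22, and the neutrophil genes Retnlg and Ly6g at 350.2 and 15.9 CPM. Neutrophils also make Chil3, Hp and Ifitm6. Among the 43 T22 CD14-PF4 cells with at least 4 members, the median sum of the neutrophil genes was 0 UMIs per 3000 and the mean 1.07. In the long-term pools the list stood at 523 CPM in CD14-PF4 and 322 CPM in Macro-M2. The conventional dendritic cell list was at 1158 CPM in long-term CD14-PF4, including Ccr7 of migrating dendritic cells at 394 CPM, against 123 CPM in Macro-M2 and 838 CPM in CD14-IL1B. Of the 5 eosinophil genes, the sum reached at most 7.04 CPM in any long-term label, while Ear2, named for eosinophils, reached 126.8 CPM in Macro-M2. The part of these cell types in the CD14-PF4 level was not tested.

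The genes whose pattern over all labels was most like each member's were found from the Pearson correlation of log2(CPM + 1) over 52 pairs of label and experiment with at least 50 cells, among 12823 genes. These pairs share libraries and depth, and the values are descriptions. For Ear2 they were its paralog Ear1 (r = 0.97) and Trem1 (r = 0.95), for Chil3 Ear1 (r = 0.93) and Mmp8 (r = 0.92), for Ifitm6 Trem3 (r = 0.93) and Lilra6 (r = 0.91), and for F13a1 Clec4a1 (r = 0.89) and Lilra6 (r = 0.89). Ly6c2 came with AB124611 (r = 0.87), and Plac8 with Hpse (r = 0.82) and Sp140 (r = 0.78). Vcan came with Ptgfrn (r = 0.87) and Idh1 (r = 0.80), and Hp with Ly6g6e (r = 0.78) and Cldn4 (r = 0.78). Within the set, Chil3, Ear2, F13a1 and Ifitm6 had r of 0.85 to 0.93 with each other, while Vcan and Ly6c2 had -0.27.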

How the data were processed

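Cells of 16 pools were profiled by droplet RNA-seq with 3' v3.1 chemistry (10x Genomics). The authors aligned reads to GRCm38 with Cell Ranger 6.0.0, counted intronic reads too, removed low-quality cells and doublets, clustered the cells and deposited raw UMI counts per cell and gene with cluster names. The deposited counts were summed per name and experiment with Python 3.11.15, NumPy 2.4.6, pandas 2.3.3 and SciPy 1.17.1, drawn with Matplotlib 3.10.9, and given as CPM. Barcodes shared by long-term pools were kept once, as the deepest copy. Genes of at least 10 CPM in a compared label formed the background, labels of under 20 cells were not compared, and cells were thinned to 3000 UMIs for counts per cell. Pools of a model may be repeated captures of 1 mixture, so no p-values were computed, and intervals were exact (Poisson, Clopper-Pearson, conditional binomial for ratios). The 8 members and all gene lists were chosen with earlier results of these data known, and the genes named are the members, the listed genes and the 2 genes most like each member (for Ly6c2, 1 is not reported here). The scripts were tested on simulated data. The deposited normalized tables were not used, and the submitters' label gives the organism as human although the gene symbols are of the mouse.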

Additional observations from a re-analysis of the deposited data

Results flagged for a closer look

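Pool values of the sum and of each gene were searched for a pool far from the rest in 153 groups of pools with at least 20 cells each, and 22 stood out. Chance alone gives about 1 in 20 such groups if pool values are normally distributed, which was not tested. In all 22 the stray pool was the highest. In short-term T22 Macro-MKI67 a single cell held 20 of 24 Chil3 and 56 of 68 Ly6c2 UMIs. In the long-term pools a single cell held 53 of 100 Ly6c2 UMIs in Macro-MKI67 and 220 of 436 Chil3 UMIs in Macro-M1. Other flags were spread wider, as for F13a1 in long-term Macro-M2, with at most 79 of 9200 UMIs in a cell. The part of single cells in the flags was not tested.

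Several lay in Macro-MKI67, Macro-M1 and CD14-IL1B. In long-term Macro-MKI67 the 8-gene sum was 4192 CPM in pool 5 (others 332 to 1304), Chil3 3406 CPM in pool 5 (others 112 to 905), Ear2 386 CPM in pool 5 (others 27.7 to 120.0) and Ly6c2 67.3 CPM in pool 6 (others 3.43 to 17.5). In short-term T22 Macro-MKI67, Ly6c2 was 48.3 CPM in pool 1 (others 0 to 3.84), Chil3 19.3 CPM in pool 2 (others 0 to 0.684) and Vcan 11.6 CPM in pool 4 (others 3.36 to 4.61). In short-term T127 Macro-MKI67, F13a1 was 79.3 CPM in pool 4 (others 10.3 to 19.6). In long-term Macro-M1 the sum was 371 CPM in pool 7 (others 94.5 to 187), Chil3 174 CPM in pool 7 (others 3.99 to 32.8) and Ifitm6 34.0 CPM in pool 4 (others 1.33 to 15.4). In short-term T127 CD14-IL1B, F13a1 was 19.4 CPM in pool 1 (the others 0) and Ear2 53.4 CPM in pool 4 (others 0 to 6.12).

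The rest lay in Macro-M2, Macro-others and CD16-CDKN1C. In long-term Macro-M2, Plac8 was 335 CPM in pool 6 (others 146 to 228) and F13a1 412 CPM in pool 8 (others 135 to 245). Ear2 in Macro-M2 was 63.4 CPM in pool 1 (others 32.9 to 38.1) in short-term T22 and 190.3 CPM in pool 3 (others 123 to 130.1) in short-term T127. In long-term Macro-others, Ly6c2 was 57.7 CPM in pool 8 (others 2.29 to 19.3) and Hp 42.0 CPM in pool 4 (others 8.08 to 14.97). In short-term T22 Macro-others the sum was 149 CPM in pool 4 (others 59.1 to 70.7) and Plac8 90.1 CPM in pool 4 (others 25.9 to 34.7), and in short-term T22 CD16-CDKN1C Ifitm6 was 39.0 CPM in pool 4 (others 22.1 to 24.8).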

How the results depend on the processing

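The sum, its T127 over T22 ratios and the shares of cells with at least 4 genes were recomputed under other settings. Of 105 such values 85 moved by less than the spread between pools, and so did all 152 values without 1 pool. The latter count was nearly fixed in advance, since leaving out 1 pool seldom moves a pooled value by a full spread. It therefore shows no stability, and long-term Macro-MKI67 passed although its sum fell from 1197 to 755 CPM without pool 5. CD14-PF4 had the highest sum in all 3 experiments under each setting, while CD16-CDKN1C and Macro-M2 changed places in long-term without Chil3 and in T127 without Plac8 or as a mean over cells. CD16-CDKN1C fell below CD14-IL1B (379 CPM) in T22 as a mean over cells and below Macro-MKI67 in long-term without Plac8 (1111 CPM) or without pools 1 to 3 (1466 CPM). Without Chil3 the long-term sum was 909.8 CPM in CD16-CDKN1C, 396 in CD14-IL1B and 161 in Macro-others. Without Plac8 the sum in CD14-PF4 was 3815 CPM in T22 and 2605 in T127, and the T127 over T22 ratio 9.01 in CD16-CDKN1C and 4.27 in Macro-M2. As a mean over cells, the sum was 1468 CPM in long-term CD14-IL1B, 7059.8 in T22 and 7055 in T127 CD14-PF4, and the ratio 12.3, 3.74 and 16.6 in CD16-CDKN1C, Macro-M2 and Macro-others. Over cells of at least 3000 UMIs the CD16-CDKN1C ratio was 5.48. Thinned to 1500 UMIs, 6.05% of long-term CD16-CDKN1C cells had at least 4 genes. At least 3 genes were found in 15.2% of CD16-CDKN1C, 6.95% of CD14-IL1B, 1.04% of Macro-M1, 12.7% of Macro-M2 and 2.00% of Macro-others cells. By construction, leaving out a gene lowers a sum and counting cells with at least 3 genes raises a share. The changed ratios and places of labels do not follow from construction. Their cause, and that of the other moves, was not tested. Of 432 values of single members under other settings, 428 moved by less than the spread between pools. In this count and in that of 105, some settings could not move a value. All 98 long-term CD14-PF4 cells held at least 3000 UMIs. The T127 sums in CD14-PF4, CD16-CDKN1C and Macro-M2 were the same without the top 5% of cells by UMIs. Neither count therefore shows stability. No paired analysis was possible because no test was run between experiments, whose pool numbers nothing links; labels of 1 experiment share its pools and are also compared within them. Model, pool, day and treatment cannot be told apart, and CD14-PF4 rests on 66 to 98 cells an experiment. The ratios outside CD14-PF4 and the settings on them, and the sums without Hp or without long-term pools 1 to 3, were chosen after seeing the data.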

Other observations

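Paralogs of the members showed how far the counts can be ascribed to 1 gene. Ear1, whose sequence is close to that of Ear2, stood at 94.2 CPM in long-term Macro-M2 beside 126.8 CPM of Ear2, and reads could be split between them, so the Ear2 level is uncertain to that extent. Ly6c1, a paralog of Ly6c2, was at 0.0593 CPM in long-term CD16-CDKN1C and 10.5 CPM in endothelial cells, where Ly6c2 was at 0.877 CPM. Chil4 was at 0.0244 CPM in long-term Macro-M2, against 1039 CPM of Chil3. Ifitm2 and Ifitm3, relatives of Ifitm6, held more UMIs than Ifitm6 itself in the 2 labels given next. In long-term CD16-CDKN1C Ifitm3 was at 1852 CPM and Ifitm2 at 789 CPM, and in CD14-PF4 they were at 2276 and 1142 CPM. Ifitm1 was at 128 CPM in CD14-PF4, below the 143 CPM of Ifitm6, and at 67.9 CPM in CD16-CDKN1C, above its 51.6 CPM there.

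Barcodes shared by long-term pools 1 to 3 often carried different labels in their shallower and deepest copies. The 5122 shallower copies had a median of 1742 UMIs against 10368 in the deepest copies, and 31.0% carried the label of their deepest copy. Of the 4066 shallower copies labelled CD16-CDKN1C, 3188 had a deepest copy with another label. Whether the low depth of CD16-CDKN1C in short-term T22 bears on its 8-gene sum was not tested beyond the ratio over cells of at least 3000 UMIs.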
